A study of Mus musculus with 4 samples.

Results

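The genes for GM-CSF (Csf2), interleukin 3 (Il3), M-CSF (Csf1), interleukin 6 (Il6), leukaemia inhibitory factor (Lif), oncostatin M (Osm) and interleukin 31 (Il31) were followed in activated helper T cells with and without the transcription factor Irf4. They were chosen by symbol, as every non-control probe whose accession maps to one of these names, which gave 12 of 56605 probes and 7 of 22875 named genes. The cells were CD4+ T cells of male C57BL/6 mice, wild type or Irf4-/-, taken from spleen and sorted as naive cells that carried CD62L and lacked CD44. Both genotypes received the same stimulus, an antibody to CD3e (1 µg per ml) with syngeneic antigen-presenting cells that mitomycin C kept from dividing. Live CD4+ cells were re-sorted for RNA at day 2, the time given in the titles and the design text, although the culture protocol gives less than 2 days. How the Irf4 allele was made, and how many mice stand behind a sample, are not given in the sources used here. Each genotype has 2 samples from experiments described as independent, each on 1 one-colour array, and the age of the mice is not given either. The question was whether these cytokine transcripts differ between the genotypes.

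GM-CSF and interleukin 3 are growth factors for myeloid cells that activated T cells secrete, and their receptors share the common beta chain encoded by Csf2rb. M-CSF acts through a separate receptor kinase, Csf1r, and keeps macrophages alive. Interleukin 6, leukaemia inhibitory factor and oncostatin M signal through the shared subunit gp130 (Il6st) and the kinases and STAT factors bound to it. Interleukin 31, a T-cell product known for its part in itch, is placed in the same family but pairs Il31ra with the oncostatin M receptor chain. In T cells, antigen receptor signals reach the Csf2 and Il3 genes through NFAT, AP-1 and NF-kappaB factors, and Irf4 binds DNA together with AP-1 partners such as Batf.

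A level here is a probe's log2 signal less the 75th percentile of its array, compared between arrays for 1 probe at a time, except for the sums over cell markers. The arrays had 25677 to 28725 probes well above background, the lowest such signal lay between -4.82 and -3.93, and no non-control spot was saturated. A gene was tested where both arrays of either genotype read its brightest probe well above background, which held for 20505 genes or unnamed transcripts. Of these 0.736% were called at an adjusted p under 0.05 (limma), 0.493% as higher and 0.244% as lower in Irf4-/- cells. With slide row as a block, or without either wild-type array, limma called none of the 20505 (1678 to 3195 at an unadjusted p under 0.05), so each call given here was lost in those fits. The Irf4-/- arrays lay above both wild-type arrays for 17.9% and below them for 21.3%. The targeted gene Irf4 had levels of 5.03 and 4.74 in wild-type and 4.23 and 4.04 in Irf4-/- cells (difference -0.75 ± 0.20 SE, limma adjusted p = 0.231). Where its probes lie relative to the deleted part is not given, so this signal checks nothing about the deletion. Replicates 1 lay in slide row 1 and replicates 2 in row 2, and the wild-type arrays shared slide column 1, in which no Irf4-/- array lay, so column and genotype cannot be told apart. The p-values measure the spread between these samples, and fewer producing cells cannot be told apart from less transcript per cell.

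Of the 7 cytokine genes, 5 were well above background on all 4 arrays, Il31 on the Irf4-/- arrays alone and Il6 on none. Of 6 tested, Csf2 and Il31 rose in Irf4-/- cells, none fell and 4 did not pass, beside 0.493% of all tested genes called higher. At an unadjusted p under 0.05 there were 3, all with higher signal, Il3 being the third, and 11.4% of all tested genes lay under it in either direction. Il31 entered the test through the Irf4-/- arrays, where it was high. On the brightest probes, both Irf4-/- arrays lay above both wild-type arrays for 3 of the 6 (Csf2, Il3 and Il31), against 17.9% of all tested genes. The groups overlapped for Csf1, Lif and Osm. The median difference over the 6 was 1.46, against -0.02 over all tested genes. That median includes Il31, whose difference uses wild-type signal not well above background and which was tested through its high arrays, so nothing is concluded from it.

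**Figure D1:**
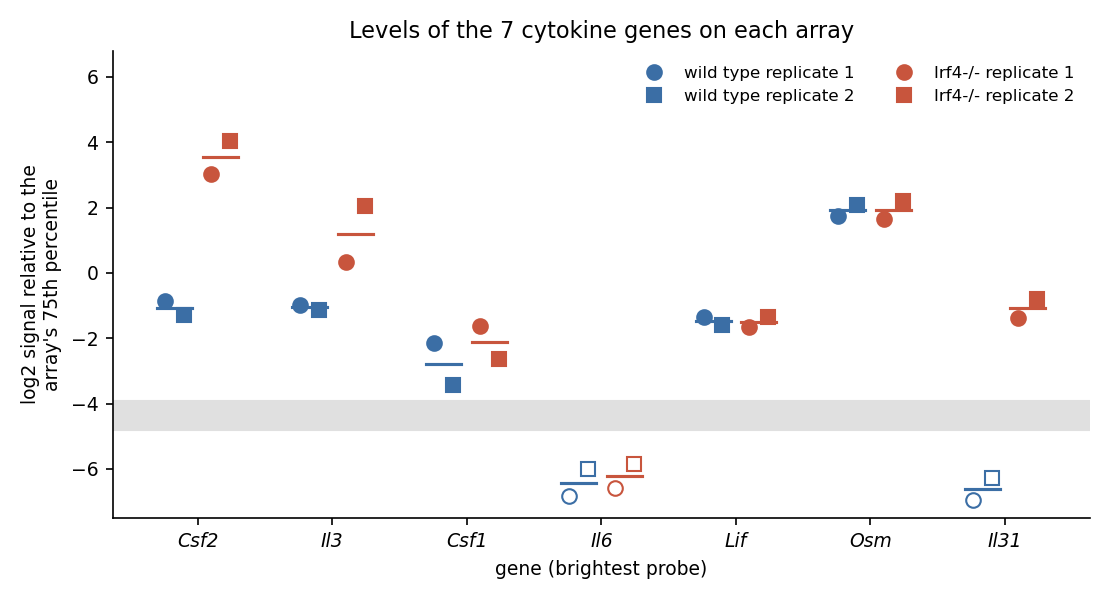
Log2 signal relative to the array's 75th percentile (vertical axis) for the brightest probe of each of the 7 genes (horizontal axis), 1 point per array, with bars at the mean of each genotype; open points were not well above background and the grey band spans the lowest signals counted as well above background on the 4 arrays. Csf2, Il3 and Il31 are separated by genotype, whereas Csf1, Lif and Osm overlap and Il6 lies below the band on every array.

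Csf2 encodes GM-CSF, which drives the growth and activation of granulocytes, macrophages and dendritic cells. Its single probe (NM_009969) read -0.86 and -1.28 on wild-type replicates 1 and 2 and 3.03 and 4.05 on Irf4-/- replicates 1 and 2. Both Irf4-/- arrays were high, and the smallest gap between the genotypes, 3.89, was larger than the gap of 0.42 between wild-type arrays or of 1.02 between Irf4-/- arrays. Csf2 signal rose 24.4-fold (log2 difference 4.61 ± 0.39 SE, limma adjusted p = 0.0318, n = 2 per genotype), with a 95% interval of 12.2-fold to 48.9-fold. It was higher by 3.89 in slide row 1 and by 5.33 in row 2, or 14.8-fold and 40.3-fold. Its difference ranked 17th from the highest of the 20505. Leaving out wild-type replicate 1 gave an adjusted p of 0.0995, leaving out wild-type replicate 2 gave 0.123, and slide row, which equals replicate number, as a block gave 0.116, each above the threshold of 0.05. The call was also lost with quantile normalization (adjusted p = 0.0839) and without the filter on dim probes (adjusted p = 0.406, the highest of a range that starts at 8.11e-06), while the difference stayed between 4.07 and 5.12 in all 13 alternatives.

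Il3 encodes interleukin 3, a growth factor for mast cells, basophils and early blood progenitors. The brighter of its 2 probes read -0.97 and -1.13 on the wild-type arrays and 0.35 and 2.04 on the Irf4-/- arrays. Wild-type arrays lay close together, whereas the Irf4-/- arrays were 1.70 apart, with replicate 2 the higher. The mean difference was 2.25 ± 0.57 (SE), or 4.74-fold with a 95% interval of 1.72-fold to 13.1-fold, and did not pass the test over all genes (limma adjusted p = 0.215; higher in both rows, by 1.32 and 3.18). The dimmer Il3 probe gave -2.53 and -2.43 in wild-type and -1.12 and 0.82 in Irf4-/- cells, a difference of 2.34, so the probes were alike in size and in which array was high. Without Irf4-/- replicate 1 the difference was 3.10 (adjusted p = 0.00702) and without Irf4-/- replicate 2 it was 1.40 (adjusted p = 0.0955). Those fits keep 1 Irf4-/- array, so the wild-type pair alone gives the spread, the gap between the Irf4-/- arrays is left out, and the SE was 0.27 in each. It also passed with normexp background correction (1.71, adjusted p = 0.0119), the range of adjusted p over all alternatives being 0.00702 to 0.818.

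Il31 encodes interleukin 31, and its transcript was not well above background in wild-type cells. Its probe (NM_029594) read -6.96 and -6.28 on the wild-type arrays, below the background limit, and -1.38 and -0.80 on the Irf4-/- arrays. The measured means were -6.62 and -1.09, and because the wild-type signal is only an upper bound, the fold is given as at least 10.2-fold higher. This sets the Irf4-/- mean against the lowest signal well above background on each wild-type array. Il31 passed the test (limma adjusted p = 0.0293, higher on both Irf4-/- arrays), but it was tested because of the arrays where it is high, and the p uses wild-type signal that was not well above background. It was not tested when every array had to be above background. The adjusted p was 0.0929 with wild-type replicate 1 left out, 0.0922 with wild-type replicate 2 left out and 0.0967 under the slide row block. The call was lost there and with quantile normalization (adjusted p = 0.0555) and without the filter (adjusted p = 0.406), in a range starting at 8.52e-05. With normexp, which adds a constant to every signal, the difference was 1.43.

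The windows before the starts of these genes are shown because Csf2 and Il3, which lie next to each other, and Il31 all had higher signal without Irf4, while Lif, shown beside them, did not separate by genotype. Each is the 250 bases upstream of the gene's start in RefSeq (GRCm38.p6), read 5′ to 3′ on the gene's strand, at chr11:54249900-54250149 (minus strand), chr11:54267280-54267529 (minus strand), chr5:123482624-123482873 (minus strand) and chr11:4257318-4257567 (plus strand). Capitals mark matches, on either strand, to GGAAA (the core bound by NFAT factors), TGANTCA (the AP-1 element) or TATAA (the core of the TATA box).
Csf2: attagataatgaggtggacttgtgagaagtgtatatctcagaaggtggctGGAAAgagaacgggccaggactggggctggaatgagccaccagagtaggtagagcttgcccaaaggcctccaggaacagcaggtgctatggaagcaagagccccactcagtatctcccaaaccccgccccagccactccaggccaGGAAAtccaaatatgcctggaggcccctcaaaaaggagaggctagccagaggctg
Il3: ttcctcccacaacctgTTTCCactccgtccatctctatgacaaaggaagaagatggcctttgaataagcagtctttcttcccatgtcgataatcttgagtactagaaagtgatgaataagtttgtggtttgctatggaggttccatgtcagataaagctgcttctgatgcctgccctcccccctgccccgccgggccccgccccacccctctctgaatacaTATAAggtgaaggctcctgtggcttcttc
Il31: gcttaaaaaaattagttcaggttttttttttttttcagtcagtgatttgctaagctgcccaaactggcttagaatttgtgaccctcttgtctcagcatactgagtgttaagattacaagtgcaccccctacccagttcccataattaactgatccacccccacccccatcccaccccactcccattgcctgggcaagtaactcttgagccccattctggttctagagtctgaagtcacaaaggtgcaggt
Lif: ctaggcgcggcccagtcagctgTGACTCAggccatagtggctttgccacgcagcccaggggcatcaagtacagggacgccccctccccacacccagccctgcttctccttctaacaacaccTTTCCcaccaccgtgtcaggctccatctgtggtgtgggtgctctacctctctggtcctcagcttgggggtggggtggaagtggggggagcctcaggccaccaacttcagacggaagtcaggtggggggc
GGAAA occurred 2 times in the Csf2 window, 1 time in the Il3 window and 1 time in the Lif window, and 55.6% of 32851 RefSeq windows of this length hold it. The windows of Csf1 and Il6, not shown, held 3 matches each, and no window was available for Osm. The Il31 window held none of the letters searched. TGANTCA was found in the Lif window and in that of Il6, and in 6.75% of all windows, and TATAA in the Il3 window, against 22.8% of all. The composites searched for AP-1 with IRF factors, TGANTCA with GAAA 4 bases after it or 4 bases before it, were in none of the 6 member windows and in 0.0974% and 0.131% of all. GAAA followed by another GAAA after a gap of 2 bases (an IRF element), and GGAA followed by GAAA after the same gap (an ETS and IRF composite, which can overlap GGAAA), were likewise in none of the 6, against 2.98% and 2.30% of all windows. Other spacings of GAAA and TGANTCA, among them GAAA directly beside TGANTCA, were not searched. Matches describe letters in these windows, and which start site the cells used was not measured.

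Csf1 encodes M-CSF, the survival factor of macrophages. Its brightest probe (NM_007778) read -2.16 and -3.42 in wild-type and -1.62 and -2.62 in Irf4-/- cells. In both genotypes the replicate 1 array was the higher, and the groups overlapped. The difference of 0.67 ± 0.54 (SE) did not pass (limma adjusted p = 0.814), with a 95% interval of -0.72 to 2.05. Without wild-type replicate 2 it was 0.03 (adjusted p = 0.999), without Irf4-/- replicate 1 it was 0.17 (adjusted p = 0.964) and without wild-type replicate 1 it was 1.30 (adjusted p = 0.557), the range over all alternatives being 0.218 to 0.999. Within rows 1 and 2 it was 0.54 and 0.80. Another 2 Csf1 probes carry the accession of a different transcript (NM_001113530) and were dimmer. One read -4.03 and -5.67 in wild-type and -3.32 and -3.46 in Irf4-/- cells and was above background on 3 arrays. Its difference of 1.46 did not pass the fit over probes (limma adjusted p = 0.389). The other, with a difference of 1.23, was above background on 2 arrays, both in slide row 1, and was not tested. On both dimmer probes the Irf4-/- values lay above the wild-type values, unlike on the brightest. The mean over all Csf1 probes gave 1.12 (limma adjusted p = 0.563).

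Among the gp130 cytokines, Lif and Osm had levels that overlapped between the genotypes. Lif, whose product maintains stem cells and acts on many tissues, read -1.35 and -1.60 in wild-type and -1.65 and -1.37 in Irf4-/- cells. The wild-type and Irf4-/- values interleave, with a difference of -0.03 ± 0.20 (SE, limma adjusted p = 0.992) and a 95% interval of 0.680-fold to 1.40-fold. Osm, which encodes the oncostatin M made by activated T cells and myeloid cells, read 1.75 and 2.09 in wild-type and 1.64 and 2.21 in Irf4-/- cells on its brightest probe. Here replicate 2 was the higher array in both genotypes. The difference was 0.01 ± 0.27 (SE, adjusted p = 0.999), with an interval of 0.624-fold to 1.62-fold, and its sign turned in some alternatives, as did that of Lif. A dim Osm probe differed from this. It read -4.75 and -4.15 in wild-type cells, not well above background, and -3.96 and -3.54 in Irf4-/- cells, at least 1.59-fold higher, without passing the fit over probes (adjusted p = 0.432).

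Il6, a cytokine mostly of myeloid and stromal cells, was not well above background on any array with either of its 2 probes. The brighter probe read -6.84 and -6.00 in wild-type and -6.59 and -5.86 in Irf4-/- cells, each below the limit of its array. No fold is given, and a level below this limit is not shown to be absent.

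**Figure D2:**
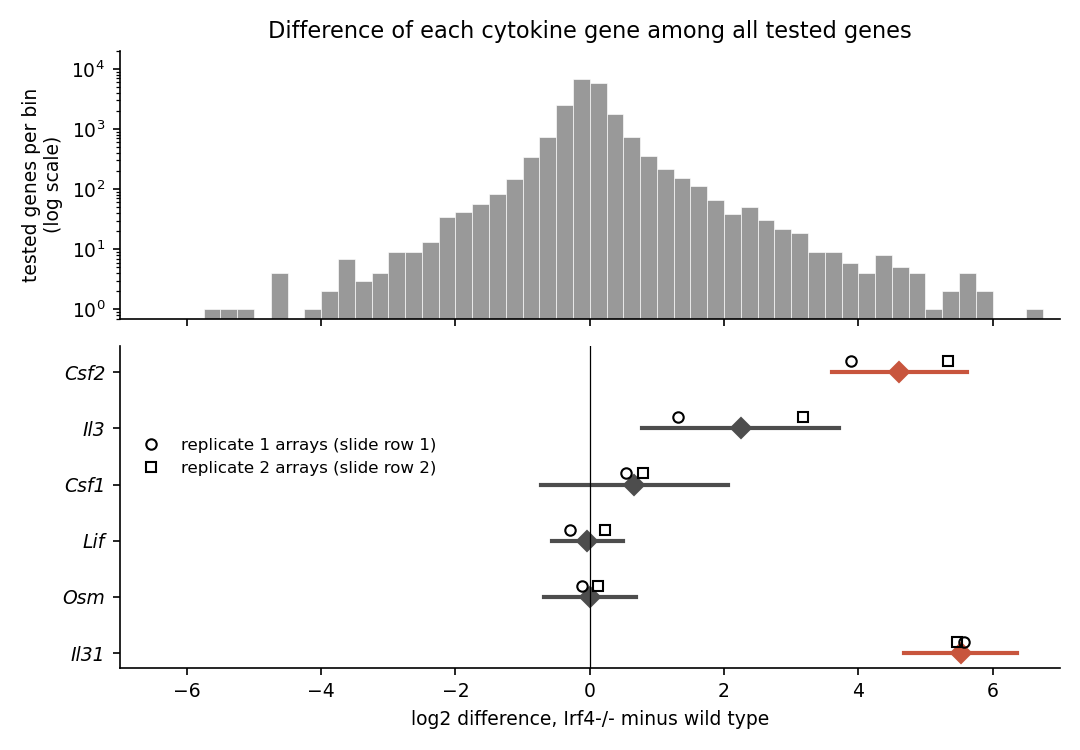
Upper panel, number of tested genes (log scale) by log2 difference, Irf4-/- minus wild type; lower panel, the difference of the 6 tested cytokine genes (diamonds) with its 95% interval from limma and the differences within slide rows 1 and 2 (open circles and squares), red where the adjusted p was under 0.05. Csf2 and Il31 lie at 4.61 and 5.53, where the Il31 value uses wild-type signal below background, Il3 at 2.25 with rows far apart, and Lif and Osm near 0.

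Chromosome 11 carries adjacent pairs of these genes, Csf2 beside Il3 and Osm beside Lif, in the order of genes with a probe (GRCm38.p6). The measured neighbours of Csf2 and Il3 had differences of the opposite sign. Pdlim4, a cytoskeletal adaptor gene, read 3.02 and 2.62 in wild-type and 0.74 and 1.32 in Irf4-/- cells, a difference of -1.78 (limma adjusted p = 0.0809). P4ha2, a collagen prolyl hydroxylase subunit gene, differed by -1.14 (adjusted p = 0.475) and Fnip1, a folliculin partner gene, by -0.70 (adjusted p = 0.312). Acsl6, an acyl-CoA synthetase gene next to Il3, was well above background in wild-type cells alone and at least 2.12-fold lower (adjusted p = 0.0561). Thus all 4 measured neighbours had both Irf4-/- arrays below both wild-type arrays, against 21.3% of tested genes, with adjusted p from 0.0561 to 0.475, so none passed. Slc22a4 and Meikin were not well above background.

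The pair Osm and Lif had mixed neighbours. Castor1, an arginine sensor gene, differed by 0.97 (limma adjusted p = 0.165) and Tbc1d10a, a Rab GTPase-activating protein gene, by 0.53 (adjusted p = 0.336). Sf3a1, Mtmr3 and Ascc2 differed by -0.18, -0.25 and -0.23. Beside Il31, the genes Mlxip, Bcl7a, Psmd9 and Diablo differed by 0.07, -0.05, 0.10 and 0.05, with overlapping groups for each, so these neighbours did not separate by genotype as Il31 did. Near Csf1, Ahcyl1 differed by -0.24.

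**Figure D3:**
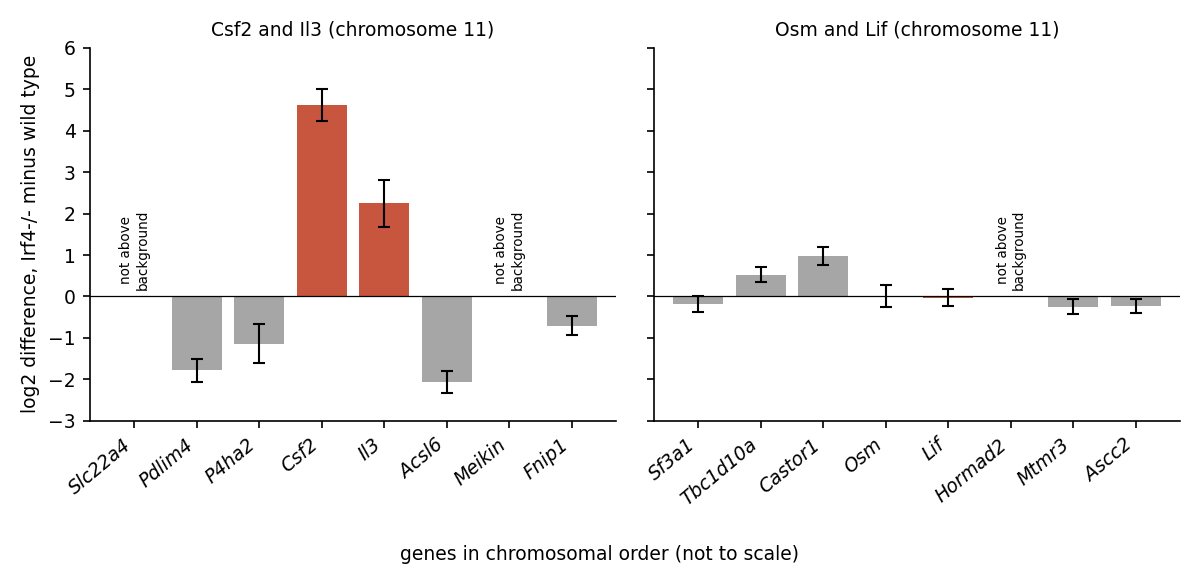
Log2 difference, Irf4-/- minus wild type (vertical axis), with limma's SE for the genes on either side of the pairs Csf2 and Il3 (left) and Osm and Lif (right) in chromosomal order, not to scale; red bars are the cytokine genes. Csf2 and Il3 stand at 4.61 and 2.25 between neighbours from -2.06 (Acsl6, whose Irf4-/- signal was not well above background) to -0.70, and Osm and Lif lie near 0.

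Of the 10 receptor genes for these cytokines 7 were tested, and 1 fell, with none rising and 6 not passing (median difference 0.18, against -0.02 over all tested genes). Of all tested genes 0.244% were called lower. The one that fell was Il6ra, the interleukin 6 receptor alpha chain, which read 4.28 and 3.86 in wild-type and 1.95 and 1.79 in Irf4-/- cells (-2.19 ± 0.22 SE, limma adjusted p = 0.0392). A second Il6ra probe differed by -1.55. Among the GM-CSF and interleukin 3 receptors, the common chain gene Csf2rb differed by 0.94 (adjusted p = 0.259) and its close relative Csf2rb2, whose transcripts the probes may not separate, by 1.72 (adjusted p = 0.196). The interleukin 3 receptor alpha chain gene Il3ra differed by 0.30 (adjusted p = 0.732). Each of these 3 had both Irf4-/- arrays above both wild-type arrays. This held for 4 of the 7 tested receptor genes, against 17.9% of all tested genes. The order was reversed for 1, and the groups overlapped for 2, among them the GM-CSF receptor gene Csf2ra. The remaining receptors were named after their values were seen. Csf2ra differed by -0.07, the gp130 gene Il6st by 0.18 and the brightest Csf1r probe by 0.01, while Lifr, Osmr and Il31ra were not well above background on any array.

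Other ligands of these receptor families gave 5 tested of 10, with none called by limma (1 at an unadjusted p under 0.05). Ebi3, a subunit of interleukin 27, differed by 1.12 (adjusted p = 0.139) and Clcf1 by 0.50 (adjusted p = 0.626). Cntf differed by -0.17. Il5, whose receptor also uses the common beta chain, was above background on 1 Irf4-/- array and was not tested. Of 14 genes of JAK and STAT signalling and feedback, a list that also holds Ptpn11, Pim1 and Bcl3, none was called (2 at an unadjusted p under 0.05; median 0.17). Jak2, the kinase bound to the common beta chain, differed by -0.58 (adjusted p = 0.336), Socs3 by -0.57 (adjusted p = 0.844), Jak1 by 0.49 (adjusted p = 0.416) and Stat3 by 0.48 (adjusted p = 0.560).

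Of 29 tested genes on a list of possible regulators of Csf2 or Il3, Batf3 fell and 28 did not pass (median -0.07), beside 0.244% of all tested genes called lower. The list was drawn up for this report, and whether each gene acts on Csf2 or Il3 was not tested. Batf3, an AP-1 family partner of Irf4, read 0.20 and 0.83 in wild-type and -3.20 and -3.04 in Irf4-/- cells (-3.63 ± 0.26 SE, limma adjusted p = 0.0318). Its relative Batf differed by 0.91 (adjusted p = 0.165), Tbx21, which encodes T-bet, by -0.96 (adjusted p = 0.117) and Egr2 by -0.93 (adjusted p = 0.208). Both Irf4-/- arrays lay below both wild-type arrays for 13 of the 29 and above them for 5, against 21.3% and 17.9% of all tested genes. Of 10 factors that govern the decay of cytokine messengers none was called (1 at an unadjusted p under 0.05; median -0.28, with 9 of 10 differences negative). Zfp36, encoding tristetraprolin, which destabilises the Csf2 messenger among others, read 2.32 and 2.40 in wild-type and 1.86 and 1.80 in Irf4-/- cells (-0.53, adjusted p = 0.321). Zc3h12d differed by -0.40, Zc3h12a by -0.37 and Zfp36l1 by 0.38.

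Receptors that can induce GM-CSF in T cells gave 1 call among 12 tested, beside 0.493% of all tested genes called higher. Tnfrsf9, encoding the costimulatory receptor 4-1BB, rose (4.199 and 4.59 against 6.19 and 6.42, a difference of 1.91 ± 0.22 SE, limma adjusted p = 0.0487). Both interleukin 18 receptor genes were higher without passing. Il18r1 differed by 2.45 (adjusted p = 0.136), and Il18rap, above background in Irf4-/- cells alone, was at least 4.81-fold higher (adjusted p = 0.0706). Il2rb differed by -0.83 (adjusted p = 0.168). Il23r and Il1r1, receptors for known inducers of GM-CSF, were not well above background on any array.

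**Figure D4:**
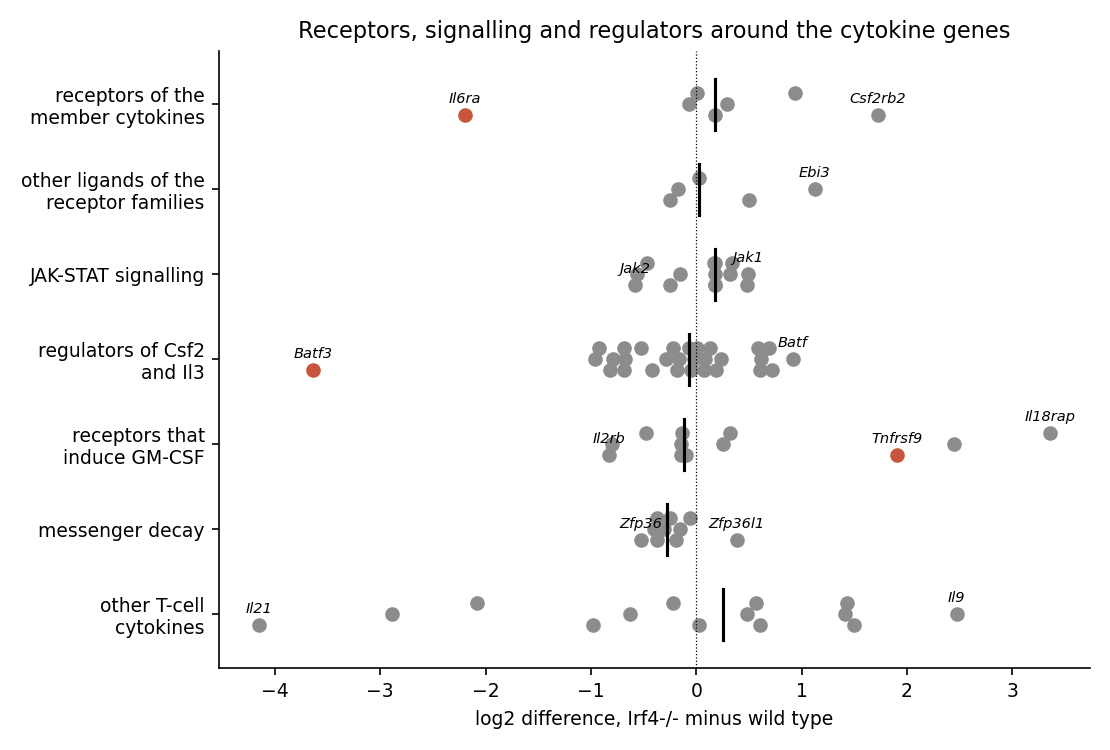
Log2 difference, Irf4-/- minus wild type (horizontal axis), of each tested gene in 7 gene lists (vertical axis), with the list's median as a black bar; red points passed the test over all genes and the outermost genes are named in most lists. Il6ra at -2.19, Batf3 at -3.63 and Tnfrsf9 at 1.91 are the points that passed, and the values of Il21, Il17a and Il18rap use signal not well above background in 1 genotype.

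Among 14 other T-cell cytokine genes tested none was called by limma (9 at an unadjusted p under 0.05, 5 higher and 4 lower, where 11.4% of all tested genes lay under it). Il9 read 0.20 and -0.90 in wild-type and 0.65 and 3.59 in Irf4-/- cells (2.47, adjusted p = 0.473), where Irf4-/- replicate 2 was also the high array. Il4 differed by -2.08 (adjusted p = 0.0561). Il17a was at least 3.67-fold lower (adjusted p = 0.110). The brighter Il21 probe gave at least 8.92-fold lower signal (adjusted p = 0.121), but a second Il21 probe differed by only -0.43. The probes of Il24, named after its values were seen, also disagreed in size. The brightest read -4.19 and -3.37 in wild-type and -2.58 and -2.11 in Irf4-/- cells (1.43, adjusted p = 0.195), whereas another read -6.60 and -5.38 in wild-type cells, where it was not well above background, and -1.41 and -0.17 in Irf4-/- cells.

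Cells other than T cells can make several of these cytokines, so markers of other cells were read on the same arrays. The markers given as examples below were named after their values were seen. Of 9 T-cell identity genes tested none was called (2 at an unadjusted p under 0.05), and the Irf4-/- arrays lay above both wild-type arrays for 3 and below them for 3. Cd3e, Cd3d and Cd4 differed by -0.01, -0.02 and 0.11, whereas Cd5 differed by 0.86 (limma adjusted p = 0.130), Cd2 by -0.48 and Cd247 by -0.36. Of 10 mast cell and basophil markers, cells in which Il3, Csf2 and Il31 can be made, 5 were tested and none was called (2 at an unadjusted p under 0.05). Sums of marker levels, in units of the array's 75th percentile, weigh bright probes most and were 1.41 to 1.52 in wild-type and 2.26 to 2.99 in Irf4-/- cells. Kit was at least 14.4-fold higher (limma adjusted p = 0.0505) and Ms4a2 at least 2.41-fold higher (adjusted p = 0.0533). A second Ms4a2 probe was not well above background on any array. Of the other tested markers, Hdc and Fcer1a differed by 0.23 and -0.25 with overlapping groups. The brightest Hdc probe, at 0.15 and -0.11 in wild-type cells, weighed most in the wild-type sums. A second Hdc probe was not well above background on any array. Tpsb2 differed by -0.22, with both Irf4-/- arrays below both wild-type arrays. The granule protease genes Mcpt8, Mcpt4 and Cpa3, which mark these cells, were not well above background on any array. Of 17 macrophage, monocyte and dendritic cell markers 6 were tested and none was called (1 at an unadjusted p under 0.05), with summed levels of 66.6 to 82.8 in wild-type and 66.9 to 82.4 in Irf4-/- cells. Of the 17, 5 were well above background on every array (Siglech, Itgam, Csf1r, Cd68 and Cd209a) and 8 on none, among them Lyz2, Adgre1, Fcgr1 and C1qc. The brightest Siglech probe weighed most in these sums, at 5.77 and 6.13 in wild-type and 5.79 and 6.17 in Irf4-/- cells. A second Siglech probe was not well above background on any array. Of 14 B-cell markers 12 were tested and none was called (5 at an unadjusted p under 0.05, all higher), with summed levels of 2.997 to 5.38 in wild-type and 10.0 to 15.9 in Irf4-/- cells. Pou2af1 weighed most in these sums on every array, at 0.84 and -0.06 in wild-type and 3.03 and 2.68 in Irf4-/- cells. The groups overlapped for 7 of the 12. For 5 of the 12 both Irf4-/- arrays lay above both wild-type arrays, against 17.9% of all tested genes. These were Pou2af1 (2.46, limma adjusted p = 0.0684), Cd72 (1.87, adjusted p = 0.0981), Spib (1.23), Vpreb3 (0.87) and Cd22 (0.56). Ms4a1, where the groups overlapped, read -1.41 and -3.31 in wild-type and -0.30 and -2.16 in Irf4-/- cells, with replicate 1 the higher array in both genotypes as for Csf1. Of the NK and innate lymphoid markers 4 of 10 were tested and none was called (3 at an unadjusted p under 0.05). Their summed levels were 20.3 to 57.4 in wild-type and 17.8 to 18.5 in Irf4-/- cells, and Ncr1 was not well above background. Gzma differed by -2.19 (limma adjusted p = 0.230), whereas Klrd1, Eomes and Rora differed by 1.87, 1.44 and 1.16, with both Irf4-/- arrays above both wild-type arrays for each (list median 1.30). Of 2 CD8 T-cell genes, Cd8b1 was tested and not called (limma adjusted p = 0.0979). It read 3.12 and 3.21 in wild-type and 2.23 and 2.14 in Irf4-/- cells. Cd8a was well above background on the replicate 1 arrays alone and was not tested, and a second Cd8a probe was above background on no array. Their sum, 8.77 to 9.29 in wild-type and 4.45 to 4.76 in Irf4-/- cells, is therefore nearly Cd8b1 alone. The granulocyte genes S100a8 and S100a9 were not well above background on any array. Csf3r and Elane, from the same list, were well above background on all 4 arrays and differed by -0.01 and 0.27, with neither called. The part of other cells in the cytokine differences was not tested.

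The genes most like each cytokine gene over the 4 arrays were found by the root mean square difference of gene-centred log2 levels, among 11358 named genes above background on every array. Nearest to Csf2 were Ikzf2 (0.345), C1ql3 (0.370) and Cd160 (0.661). Ikzf2 read -0.76 and -1.05 in wild-type and 2.49 and 3.55 in Irf4-/- cells. Nearest to Il3 were Scin (0.128), Colq (0.178) and Zfp975 (0.241), with Scin at -0.99 and -0.89 in wild-type and 0.58 and 2.37 in Irf4-/- cells. Csf1 lay nearest to Ciita (0.105), Cd74 (0.134) and Flnc (0.147), for which replicate 1 was the higher array in both genotypes. Lif lay nearest to Tcf4 (0.0142), Mfsd14b (0.0198) and Ap3s2 (0.0205), and Osm to Pank4 (0.0125), Gpatch2 (0.0191) and Fastkd1 (0.0301). With 4 arrays many genes share such a pattern, and likeness is a description.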

How the data were processed

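Levels were measured on 4 one-colour Agilent mouse arrays of 62976 spots, 2 per genotype, grouped by the genotype label. Per the file headers, the authors obtained spot intensity from Agilent's Feature Extraction software, version 11.0.1.1, with background and a spatial trend subtracted and no normalization between arrays; the submitters' processing notes name version 9.1. A table of log2 values that the authors deposited equalled log2 of the processed signal centred on each probe's mean, up to a shift of at most 0.03 per array; its column medians were -0.16, 0.10, -0.11 and 0.12. It served as an alternative.

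Control and outlier-flagged spots were left out, log2 signal was set against each array's 75th percentile, and spots of 1 probe were averaged. Accessions of 32994 probes matched 1 symbol in a RefSeq table (GRCm38.p6) and 23611 matched none. The array design names mm9, so only gene order and the RefSeq windows use GRCm38.p6. The brightest probe stood for a gene. limma 3.58.1 in R 4.3.3 compared genotypes (Benjamini-Hochberg over 20505 genes, threshold 0.05; 2 residual and 2.95 prior degrees of freedom) and was tested on simulated data. Intervals use limma's moderated error and are not adjusted. An exact permutation test of 2 against 2 arrays cannot go below p = 0.333 and was not used. Named beside the members were genes past the threshold and the 4 largest differences of each list, the 3 nearest genes by pattern and up to 3 neighbours per side, apart from a few genes that are not reported here. The members, lists and tests were chosen with earlier results of these data known.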

Additional observations from a re-analysis of the deposited data

How the results depend on the processing

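The count of cytokine genes past the threshold was 2. It was 0 with quantile normalization, 0 without the filter on dim probes and 0 with the replicate block, and 1 when only genes above background on all 4 arrays were tested, which leaves out Il31 (limma; at an unadjusted p under 0.05 the counts were 3, 3, 4 and 2). Leaving out 1 array gave 0 (either wild-type array) to 3 (Irf4-/- replicate 1; Il3 was added), with 3 at an unadjusted p under 0.05 in each case. Of the 13 alternatives, 7 kept the count within 1.5 times. The Csf2 difference was 4.62 with quantile normalization, 4.61 without the filter and 4.61 with the replicate block, none past the threshold, and 4.10 to 5.12 when 1 array was left out.

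With accession-order number as a replicate block limma called 0 of 20505 genes (3195 at an unadjusted p under 0.05), against 151. The count over all genes was 5 with quantile normalization, 0 without the filter (2099 at an unadjusted p under 0.05; the median difference moved from -0.02 to 0.12), 797 with trend and robust settings, 260 in the authors' table, 760 with normexp and 0 to 487 when 1 array was left out. The labels give no number that pairs arrays, and arrays of 1 number deviated from their group means with r = 0.348 across genes. The files lack the mean signal that normexp was planned on, so the median signal was used, a choice made after seeing the data. The Lif difference turned to 0.09 without wild-type replicate 1, 0.11 without Irf4-/- replicate 1 and 0.044 with normexp, the range with 1 array left out being -0.17 to 0.11. The Osm difference turned to -0.0072 in the authors' table, -0.16 without wild-type replicate 1 and -0.28 without Irf4-/- replicate 2, and reached 0.29 without Irf4-/- replicate 1. The cause of these changes was not tested. Signal over background limits Il6, wild-type Il31 and the dimmer Csf1 and Osm probes, and 2 arrays per genotype limit all of the rest.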
